A study of Mus musculus with 30 samples.

Results

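The collagen genes of the mouse are those whose symbols join Col, a type number, the letter a and a chain number, such as *Col1a1*. In these liver RNA-seq data the rule found 44 genes among the 54429 symbols of a time course, and the same 44 by Ensembl identifier among the 55471 genes of a genotype cohort. Of the 44, 34 had a summed count of at least 20 over the 18 libraries of the time course and 33 over the 12 libraries of the genotype cohort. The time course took the livers of male C57BL/6J mice fed chow ad libitum under a 12 h/12 h light/dark cycle at 2, 6, and 12 months of age, at zeitgeber time (ZT, hours after lights on) 1, 5, 9, 13, 17, and 21, with 1 library for each age and ZT. The genotype cohort held livers of male mice with floxed *Egr-1* and an *Alb*-Cre transgene (KO) and of littermate controls (WT), at the same 3 ages, with 1 WT and 1 KO library at the time of the highest (H) and of the lowest (L) Egr-1 protein. The *Alb* promoter is known to drive Cre in hepatocytes, which are not the main source of fibrillar collagen, and recombination by cell type was not measured here. H and L were at ZT13 and ZT17 at 2 months, ZT9 and ZT21 at 6 months, and ZT5 and ZT21 at 12 months, so age and ZT cannot be told apart in the genotype cohort, except between L at 6 and at 12 months, both at ZT21. The study's legends name several mice a group, but the sources used here do not say how mice were assigned to the single library of each age and time, and the libraries of an age that stand in for replicates differ in ZT.

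Collagens are secreted or membrane-bound proteins in which 3 chains wind into a triple helix. Types I, III, and V assemble into the fibrils of the portal tracts and the vessel walls, type IV forms the network of basement membranes, and type VI forms beaded filaments around cells. In the liver, stellate cells and portal fibroblasts make most fibrillar collagen, and type XVIII, whose end is released as endostatin, is also made by hepatocytes. The 44 genes fell into 11 fibril-forming chains, 6 basement membrane chains of type IV, 6 beaded filament chains of type VI, 9 fibril-associated chains (FACIT), 4 membrane-spanning chains, 3 short-chain network chains, 2 endostatin-releasing chains, 1 anchoring fibril chain, and 2 others.

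Library totals were 13375377 to 16557378 counts in the time course and 13747706 to 21748956 in the genotype cohort. Levels are given as CPM, counts relative to library size scaled by edgeR's TMM factors, except where genes are compared with each other per length, in FPKM. The targeted gene was checked first. *Egr1* RNA was lower in the KO library in 4 of 6 pairs, but the libraries labelled KO stood above their WT partners at 2 months L (7.43 against 1.45 CPM) and at 12 months H (6.11 against 5.83 CPM). Over the 6 pairs its log2 fold change was -1.76 ± 0.79 (adjusted p = 0.313) and was not called. Hepatocyte markers were high in every library and of 4 exocrine pancreas markers *Pnlip*, *Cpa1*, and *Ctrb1* had a median of 0 CPM in the time course, while *Cela1* was at 31.6 to 60.8 CPM. In whole liver, fewer cells of a type and less RNA per cell cannot be told apart.

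The start regions of a few genes on which the results turn are shown first, with that of *Col4a2*, which lies head to head with *Col4a1*. Windows of 300 bases, 250 before and 50 after the start site, were read from RefSeq (GRCm38.p6) and were found for 35 of the 44 genes, as 38 windows. They are printed 5′ to 3′ in the direction of the gene, with the letters of searched motifs in capitals, for *Col1a2* (chr6:4505368-4505667, plus strand), *Col3a1* (chr1:45311288-45311587, plus), *Col6a1* (chr10:76725995-76726294, minus), *Col27a1* (chr4:63215162-63215461, plus) and *Col4a2* (chr8:11312555-11312854, plus).
Col1a2: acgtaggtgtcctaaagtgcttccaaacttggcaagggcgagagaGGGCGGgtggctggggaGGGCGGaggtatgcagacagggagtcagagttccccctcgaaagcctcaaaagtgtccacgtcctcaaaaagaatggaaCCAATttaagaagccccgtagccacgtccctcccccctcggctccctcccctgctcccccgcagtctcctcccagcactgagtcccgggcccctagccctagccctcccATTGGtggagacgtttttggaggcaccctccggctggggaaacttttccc
Col3a1: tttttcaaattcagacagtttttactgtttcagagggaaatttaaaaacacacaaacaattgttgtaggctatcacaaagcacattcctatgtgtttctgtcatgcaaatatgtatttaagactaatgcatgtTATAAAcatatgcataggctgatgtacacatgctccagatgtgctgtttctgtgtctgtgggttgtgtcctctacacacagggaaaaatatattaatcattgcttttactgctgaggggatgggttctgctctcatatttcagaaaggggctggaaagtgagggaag
Col6a1: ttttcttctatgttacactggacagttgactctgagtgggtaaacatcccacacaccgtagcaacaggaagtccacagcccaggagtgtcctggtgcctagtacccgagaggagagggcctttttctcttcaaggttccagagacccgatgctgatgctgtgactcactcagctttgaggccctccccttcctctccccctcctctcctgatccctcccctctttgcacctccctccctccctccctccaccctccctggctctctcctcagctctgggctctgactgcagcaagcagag
Col27a1: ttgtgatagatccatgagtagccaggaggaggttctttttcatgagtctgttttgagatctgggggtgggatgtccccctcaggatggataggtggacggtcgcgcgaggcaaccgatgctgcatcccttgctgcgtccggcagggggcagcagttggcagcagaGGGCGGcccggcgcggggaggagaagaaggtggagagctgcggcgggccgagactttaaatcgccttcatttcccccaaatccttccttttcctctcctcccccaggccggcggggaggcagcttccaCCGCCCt
Col4a2: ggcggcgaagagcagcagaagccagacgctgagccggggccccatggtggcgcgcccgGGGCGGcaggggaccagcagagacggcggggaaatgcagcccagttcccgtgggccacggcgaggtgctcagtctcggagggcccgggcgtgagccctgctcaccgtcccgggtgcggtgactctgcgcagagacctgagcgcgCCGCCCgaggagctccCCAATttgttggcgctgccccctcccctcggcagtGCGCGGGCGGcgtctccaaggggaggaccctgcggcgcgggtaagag

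A set of 6 motifs was searched on both strands. *Col1a1*, *Col5a2*, *Col12a1*, and *Col14a1* were among the genes without a window and were not searched. The Egr motif GCGNGGGCG was held by 5.55% of all 32851 windows and by 3 of the 38 collagen windows, those of *Col4a1*, *Col4a2*, and *Col8a1*. *Col4a1* and *Col4a2*, which encode the chains of the common type IV trimer, are transcribed away from each other and overlap by 22 bases in GENCODE, so the match at 4 bases from the *Col4a2* start and at 11 from the *Col4a1* start is 1 place in the genome read from both strands. It overlaps a GC box, GGGCGG, which 35.7% of all windows and 23 of the collagen windows hold. The CCAAT box, CCAAT, was in 37.4% of all windows and in 13 of the collagen windows, among them *Col1a2* (at 109 bases before the start and at the start itself) and *Col4a2* (at 32 bases before it). The TATA box, TATAAA, was in 13.6% of all windows and in 5 of the collagen windows, among them *Col3a1* at 117 bases before the start. The *Col6a1* window held none of the 6. The E-box CACGTG, which the clock proteins BMAL1 and CLOCK bind, was in 7.15% of all windows and in 0 of the 38, and the D-box TTATNTAA was in 3.51% of all windows and in 0 of the 38. A match to letters is no evidence of binding.

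*Col18a1* (ENSMUSG00000001435, chr10:77052178-77166548, minus strand) was the most abundant collagen transcript of the liver by a wide margin. It held 50.3% to 71.8% (median 63.1%) of all collagen CPM in the time course and 59.0% to 75.3% (median 65.5%) in the genotype cohort. Per length its FPKM ran from 34.8 over a median of 57.2 to 82.2 in the time course, and its lowest library lay above every library of every other collagen. *Col14a1*, a fibril-associated collagen, was next with a median of 6.67 FPKM (4.64 to 8.59), followed by *Col3a1*, the type III chain, with 4.50 FPKM (2.00 to 9.56). The ranges of these 2 overlapped, and so did those of each further pair of neighbours in the order of medians. *Col4a1* (2.29 FPKM), *Col6a1* (2.18 FPKM), *Col1a1* (1.61 FPKM), *Col4a2* (1.57 FPKM), and *Col1a2* (1.16 FPKM) came after it.

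The order in the genotype cohort began with the same 3 genes, at 93.9 FPKM for *Col18a1*, 8.54 FPKM for *Col14a1*, and 4.51 FPKM for *Col3a1*. *Col5a3*, a minor chain of type V, stood at 1.07 FPKM in the time course and 3.29 FPKM in the genotype cohort, but the tables came from separate experiments and no test was made between them. Between 30 and 37 of the 44 genes had a count in a library of the time course. *Col9a1*, *Col19a1*, *Col26a1*, and *Col2a1*, the last the main collagen of cartilage, had 0 counts in every library of both experiments, which allows up to 3 counts in a library. *Col11a1* had 2 counts in the time course and 0 in the genotype cohort, and *Col6a4* had 0 and 3. *Col9a2*, *Col10a1*, *Col17a1*, and *Col22a1* had fewer than 20 counts in both experiments, and *Col9a3* had 20 and 7.

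**Figure D1:**
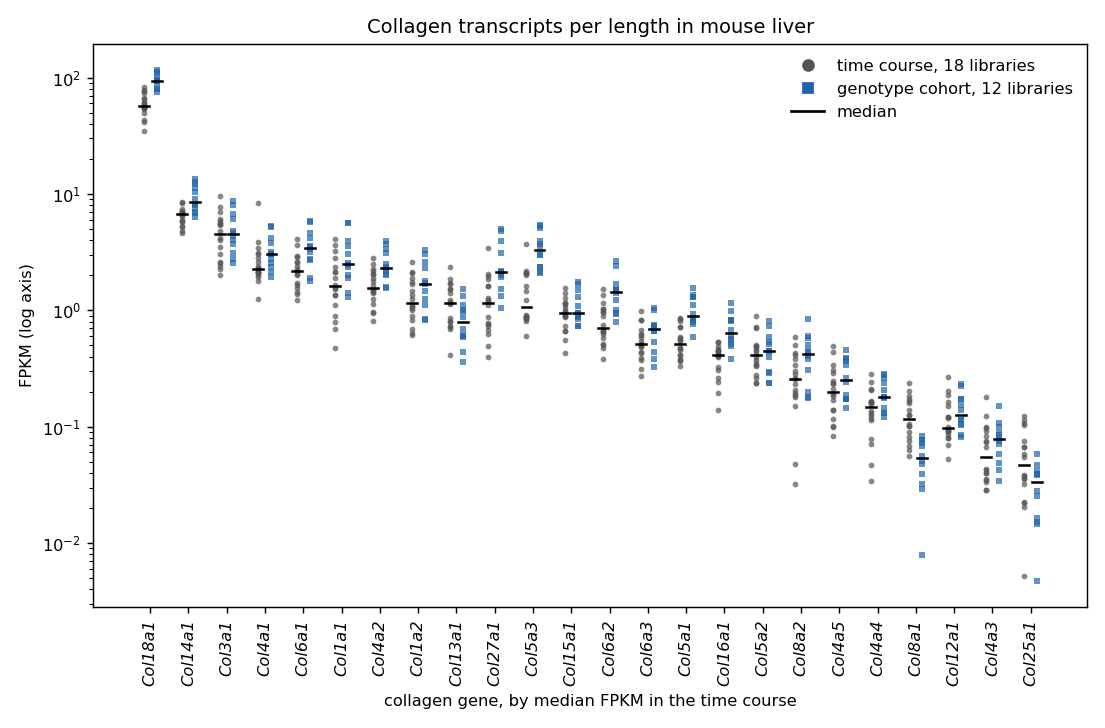
FPKM, on a log axis, of the 24 collagen genes that had a count in every library of both experiments, ordered by their median in the time course. Each circle is 1 of 18 time course libraries and each square 1 of 12 genotype cohort libraries, with medians as black bars. *Col18a1* stands above all other genes in both experiments.

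Ratios per length between chains that assemble together varied among libraries. They, and the ranks per length above, rest on the merged exon lengths, 6563 bases for *Col1a1* and 12426 bases for *Col1a2*. Summed counts over the time course were 3278 for *Col1a1* and 4459 for *Col1a2*. The FPKM ratio of *Col1a1* to *Col1a2*, the chains of type I, had a median of 1.43 at 2 months (1.02 to 1.68), 1.52 at 6 months (1.35 to 1.89), and 1.08 at 12 months (0.78 to 1.39), and of 1.61 in WT and 1.58 in KO. The ratio of *Col6a1* to *Col6a2* was 2.75 over the time course (2.21 to 3.88) and 2.46 over the genotype cohort (2.04 to 3.10). The ratio of *Col4a1* to *Col4a2* ran from 1.06 to 1.97 at 2 and 12 months, and at 6 months reached 2.26 in the ZT17 library and 2.93 in the ZT5 library. The 6 months ZT5 library held the highest *Col4a1* level of all 18, 62.2 CPM, while its *Col4a2* level was 18.8 CPM.

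The comparison of 12 with 2 months in the time course asked which collagen transcripts changed with age. The fibrillar chains of types I and III fell. *Col1a1* (ENSMUSG00000001506, chr11:94936224-94953042, plus strand), the main chain of type I, ran from 11.7 CPM over a median of 15.1 to 27.6 CPM at 2 months and from 3.10 over 5.47 to 9.41 CPM at 12 months, so the groups did not overlap. Its log2 fold change was -1.46 ± 0.22 (SE; 6 libraries an age), with an adjusted p of 0.000403 in edgeR's quasi-likelihood test. *Col1a2* (chr6:4504814-4541544, plus strand), its partner chain, went from 14.4, 21.1, and 33.0 CPM (lowest, median, highest) to 7.24, 10.3, and 15.1 CPM. The change was -1.05 ± 0.20 (adjusted p = 0.00339). *Col3a1* (chr1:45311538-45349706, plus strand) went from 53.6, 55.9, and 95.7 CPM to 17.8, 26.9, and 38.9 CPM, again without overlap. The change was -1.14 ± 0.23 (adjusted p = 0.00501).

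All 3 of these chains were lower at 12 than at 2 months at 6 of 6 ZT. The type V chains *Col5a1* (-0.04 ± 0.22, adjusted p = 0.933), *Col5a2* (-0.56 ± 0.21, adjusted p = 0.0939) and *Col5a3* (0.60 ± 0.24, adjusted p = 0.121) did not pass the test. These chains control the width of the fibrils that types I and III form.

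Of the 5 tested basement membrane chains of type IV, 2 fell and 0 rose. *Col4a2* went from 10.5, 13.4, and 16.6 CPM at 2 months to 5.76, 7.20, and 9.37 CPM at 12 months, with no overlap and a change of -0.80 ± 0.14 (adjusted p = 0.00145). *Col4a1*, transcribed from the same start region, went from 16.6, 19.2, and 23.7 CPM to 10.01, 14.2, and 16.4 CPM. Its ranges did not overlap either, but its change of -0.50 ± 0.21 missed the threshold (adjusted p = 0.139). *Col4a5* (chrX:141475385-141689234, plus strand), a chain of a second type IV network, went from a median of 2.17 to 0.74 CPM, from 17 to 54 counts a library at 2 months and from 9 to 24 at 12 months. Its log2 fold change was -1.37 ± 0.23 (adjusted p = 0.00115).

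*Col6a2*, of the beaded filaments of type VI, fell by 0.61 ± 0.19 (adjusted p = 0.0457) with overlapping ranges, from a median of 6.61 CPM (4.52 to 12.9) to 4.47 CPM (3.39 to 7.63). The other type VI chains changed by -0.44 ± 0.19 (*Col6a1*, adjusted p = 0.15) and -0.50 ± 0.16 (*Col6a3*, adjusted p = 0.0559). *Col8a1*, a short-chain collagen, fell by 1.16 ± 0.28 (adjusted p = 0.0134) from 15 to 24 counts a library at 2 months to 7 to 12 at 12 months. *Col18a1* was at 434 CPM (387 to 588) at 2 months and 405 CPM (262 to 541) at 12 months, with a change of -0.18 ± 0.11 (adjusted p = 0.282). *Col14a1* was at 48.1 and 45.6 CPM, with a change of -0.09 ± 0.09 (adjusted p = 0.568). *Col15a1*, the other endostatin-related chain, was at a median of 5.24 CPM (3.37 to 7.83) at 2 months, 7.30 CPM (5.88 to 9.98) at 6 months, and 5.31 CPM (2.50 to 6.46) at 12 months, with a change of -0.15 ± 0.24 from 2 to 12 months (adjusted p = 0.732). *Col5a1* stayed between 2.91 and 7.56 CPM and *Col5a2* between 2.25 and 8.99 CPM over all 18 libraries. *Col12a1* lay between 0.74 and 4.07 CPM over the 18 libraries. It and the remaining tested genes, *Col16a1*, *Col8a2*, *Col4a3*, *Col4a4*, and *Col25a1*, were called in no comparison of ages in the time course.

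In all, 7 of 24 tested collagen genes fell from 2 to 12 months and 0 rose, while 5.36% of the 13361 genes tested fell and 6.56% rose. The median log2 fold change was -0.33 over the 24 and 0.00 (-0.00152) over all genes tested. The 24 passed a filter on low counts, and the other 20 were not tested. Without the filter, 13 were called, among them *Col27a1* (0.48) and *Col5a3* (0.59) as higher and the other 11 as lower. That fit tested every gene with a count. Its share of all genes called is not given here and may differ from the 5.36% and 6.56%. The calls of *Col1a1*, *Col1a2*, *Col3a1*, *Col4a2*, and *Col4a5* held under all 11 alternatives, *Col8a1* lost its call without the ZT17 libraries (adjusted p = 0.0525), and *Col6a2* lost its own under 5 alternatives.

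From 6 to 12 months, a comparison that shares the 12-month libraries with the one above, 10 collagen genes fell and 1 rose, beside 8.14% and 8.13% of all genes, and the median was -0.64 against -0.02 for all genes. *Col1a1* fell by 1.25 ± 0.22 (adjusted p = 0.00128), *Col4a2* by 0.71 ± 0.14 (adjusted p = 0.00252) and *Col4a1* by 0.89 ± 0.21 (adjusted p = 0.00933). All 3 major type VI chains fell, *Col6a3* by 0.73 ± 0.16 (adjusted p = 0.00645), *Col6a2* by 0.78 ± 0.19 (adjusted p = 0.0101), and *Col6a1* by 0.60 ± 0.19 (adjusted p = 0.0397). *Col5a2* (-0.75 ± 0.21), *Col8a1* (-0.99 ± 0.28), and *Col1a2* (-0.68 ± 0.21) fell too, with adjusted p of 0.0222, 0.0253, and 0.0346. *Col3a1* changed by -0.71 ± 0.24 and just missed the threshold (adjusted p = 0.0511). The count was 5 without the ZT9 libraries, 6 without those at ZT13, and 5 without ZT as a block. The shares of all genes called in these fits are not given here.

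The fibrillar chains varied widely among the libraries of 6 months. With 1 library at each ZT, the hour and other differences between libraries cannot be told apart. *Col3a1* ran from 22.6 CPM at ZT5 to 75.1 CPM at ZT13, and *Col1a1* from 7.53 CPM at ZT21 to 24.9 CPM at ZT1. The rise in the step from 6 to 12 months was that of *Col27a1*, a fibril-forming collagen known from cartilage, with 0.83 ± 0.22 (adjusted p = 0.0157), and it lost its call without the ZT13 libraries or without ZT as a block (adjusted p over all alternatives 2.95e-06 to 0.178).

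From 2 to 6 months 3 collagen genes were called. *Col13a1*, a membrane-spanning collagen, went from a median of 3.99 CPM (3.24 to 6.80) to 7.50 CPM (5.46 to 10.9), a change of 0.78 ± 0.21 (adjusted p = 0.0196), and went back to 4.09 CPM (2.05 to 7.26) at 12 months, a change of -0.79 ± 0.21 (adjusted p = 0.0160). *Col14a1* fell by 0.31 ± 0.09 (adjusted p = 0.0357) and *Col4a5* by 0.69 ± 0.22 (adjusted p = 0.0452). The backgrounds were 7.19% higher and 6.47% lower, so 1 and 2 of 24 lay near them. The count was 0 without the ZT1 libraries, without the ZT5 libraries, or without the 6 months ZT5 library alone. In these fits the shares of all genes called are not given here. The comparisons of 6 and of 12 with 2 months share the 2-month libraries.

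**Figure D2:**
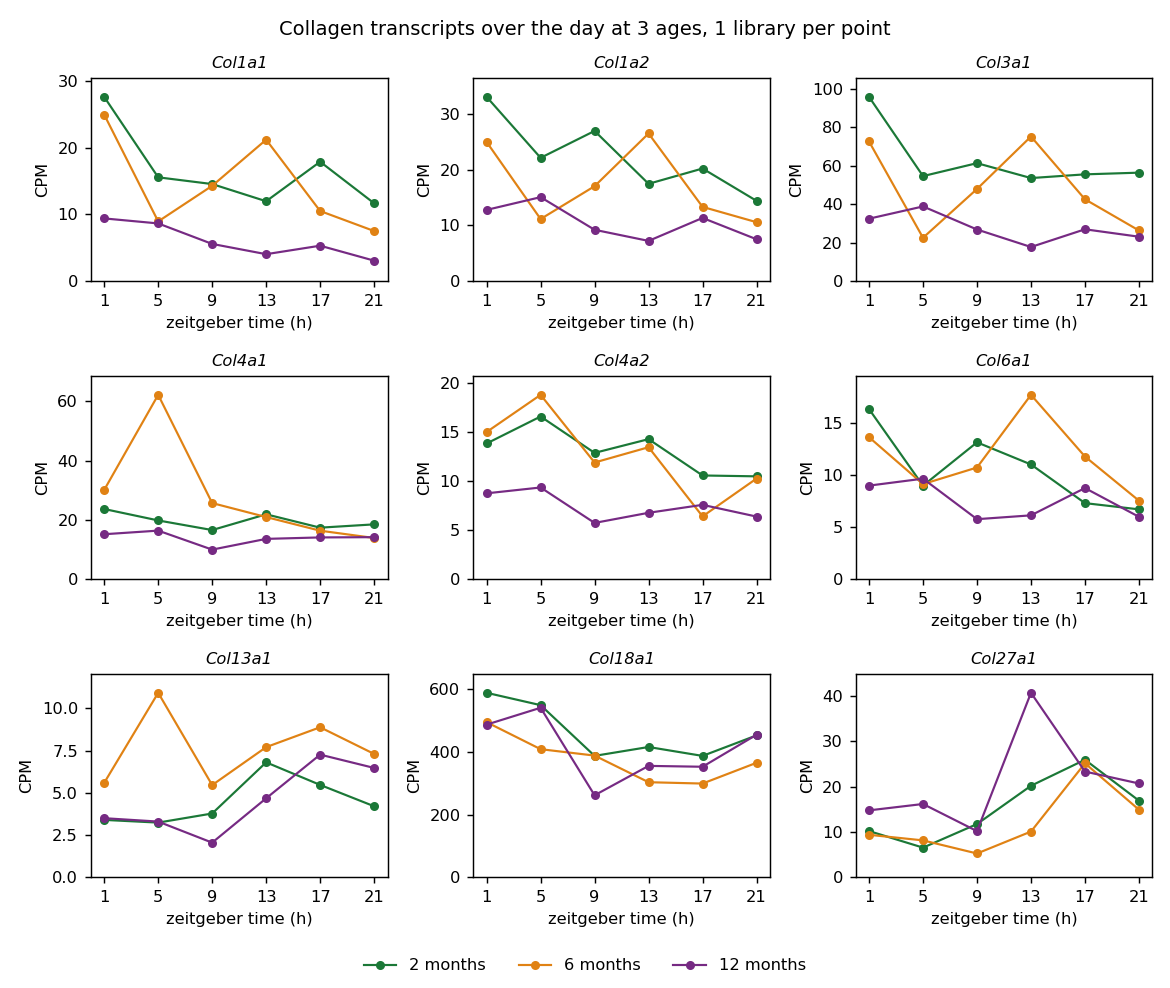
CPM of 9 collagen genes against ZT in the time course, 1 library per point, with 2 months in green, 6 months in orange, and 12 months in purple. *Col1a1*, *Col3a1*, and *Col4a2* at 12 months lie below 2 months at every ZT, and the 6 months ZT5 library stands out at 62.2 CPM in *Col4a1*.

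Genes that make, bind, or degrade collagen were counted by list, beside 5.36% of all genes that fell and 6.56% that rose from 2 to 12 months, 8.14% and 8.13% from 6 to 12 months, and 6.47% and 7.19% from 2 to 6 months. Of the 25 tested genes that fold, hydroxylate, trim, or crosslink collagen, 3 fell and 0 rose from 2 to 12 months: *Loxl2*, a crosslinking oxidase (-0.67 ± 0.19, adjusted p = 0.0281), *Ppib*, a prolyl isomerase of the endoplasmic reticulum (-0.33 ± 0.10, adjusted p = 0.0398), and *P3h1*, a prolyl hydroxylase (-0.44 ± 0.13, adjusted p = 0.0416). From 6 to 12 months 8 of the 25 fell, among them *Serpinh1*, the collagen chaperone HSP47 (-0.48 ± 0.11, adjusted p = 0.00832). From 2 to 6 months 5 of the 25 rose, among them *P4ha2* (1.00 ± 0.20, adjusted p = 0.00445) and *Plod2* (0.91 ± 0.23, adjusted p = 0.0153), both hydroxylases. Of 25 tested matrix partners, *Sparc*, a collagen-binding protein, fell from 2 to 12 months (-0.74 ± 0.10, adjusted p = 0.000166) and *Dcn*, the small proteoglycan decorin, rose (0.52 ± 0.11, adjusted p = 0.00538). From 6 to 12 months 5 of these 25 fell and 2 rose, and from 2 to 6 months 2 rose and 1 fell. The counts of 1 and 1 from 2 to 12 months lay near the share of all genes.

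Of 10 tested genes of collagen turnover, 1 fell from 2 to 12 months and 0 rose, while from 2 to 6 months 3 rose, led by the gelatinase *Mmp9* (2.00 ± 0.36, adjusted p = 0.00194), and 1 fell. Of 6 tested collagen receptors, *Ddr1* rose from 2 to 6 months (0.95 ± 0.26, adjusted p = 0.0249), and 0 were called from 2 to 12 months. Of 19 tested genes of TGF-beta and PDGF signalling, which drive collagen transcription, 0 were called from 2 to 12 months, 2 rose from 2 to 6 months, and 3 fell from 6 to 12 months, among them *Tgfb1* (-0.53 ± 0.12, adjusted p = 0.00648). For the turnover, receptor, and signalling lists the median log2 fold change from 2 to 12 months was 0.24, 0.04, and 0.07.

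Markers of the cells that make collagen moved in both directions. Of the 8 stellate cell markers, all of them tested, 2 rose from 2 to 12 months (*Reln*, 0.47 ± 0.09, adjusted p = 0.00222, and *Ecm1*, 0.39 ± 0.11, adjusted p = 0.0293) and 0 fell, and their summed level ran from 184 to 244 CPM at 2 months and from 212 to 285 CPM at 12 months. Of the 5 tested portal fibroblast markers 1 fell, *Mfap4*, by 1.15 ± 0.32 (adjusted p = 0.0274), with summed levels of 10.8 to 22.6 and 8.09 to 15.5 CPM. Endothelial markers summed to 225 to 330 CPM and 220 to 357 CPM, with 1 of 8 lower, *Stab2*, and myofibroblast and smooth muscle markers to 1.48 to 3.31 and 1.62 to 4.10 CPM, with 0 of 2 called. Hepatocyte markers summed to 85031 to 102876 CPM at 2 months and 90286 to 124568 CPM at 12 months. Of the 6, 1 fell, *Cps1* (-0.43 ± 0.12, adjusted p = 0.0273), 0 rose, and their median log2 fold change was -0.14. Of the other lists over the same span, cholangiocyte markers summed to a median of 37.0 and 21.2 CPM. Among the 4 tested, 1 fell, *Spp1* (-1.46 ± 0.29, adjusted p = 0.00415), 0 rose, and their median log2 fold change was 0.32. Kupffer cell markers summed to 399 and 333 CPM, B cell markers to 5.45 and 7.86 CPM, and mesothelial markers to 23.8 and 36.5 CPM. Proliferation genes summed to 7.43 and 4.76 CPM, and exocrine pancreas genes to 48.7 and 43.5 CPM. Adipocyte genes summed to 2.13 and 8.71 CPM, of which only *Cidec* passed the filter on low counts (2.30 ± 0.24, adjusted p = 1.39e-05). The part of the marker lists in the fall of the collagens was not tested.

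More of the markers moved from 6 to 12 months, where more collagen genes were called. Kupffer cell markers fell in 5 of 6, with a median sum of 520 CPM at 6 months and 333 CPM at 12 months. Endothelial markers fell in 3 of 8 (378 and 276 CPM) and portal fibroblast markers in 2 of 5 (14.8 and 10.3 CPM). The cholangiocyte sum went from 112 to 21.2 CPM, with 1 of 4 called, *Spp1*, which fell by 3.04 ± 0.30 (adjusted p = 1.01e-05). Stellate cell markers rose in 4 of 8 (196 and 249 CPM) and hepatocyte markers in 3 of 6 (72766 and 95042 CPM). From 2 to 6 months 3 of 6 Kupffer cell, 3 of 4 cholangiocyte, and 2 of 3 mesothelial markers rose. Their part in the collagen values was not tested.

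In the genotype cohort the chains of types I and III did not pass the test between the same ages. From 2 to 12 months, over WT and KO with 4 libraries an age, *Col1a1* changed by -0.22 ± 0.35 (adjusted p = 0.757), with levels of 12.8 to 35.4 CPM at 2 months and 9.52 to 33.5 CPM at 12 months. *Col1a2* changed by -0.41 ± 0.29 (adjusted p = 0.409) and *Col3a1* by -0.19 ± 0.30 (adjusted p = 0.751). The standard errors were larger than in the time course, and whether the 2 experiments differ was not tested. At 12 months both H libraries (ZT5) stood above both L libraries (ZT21), with *Col1a1* at 23.4 CPM in WT and 33.5 CPM in KO at H, and 9.52 and 15.2 CPM at L.

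Other collagens were called there, 1 higher and 2 lower of 26 tested, beside 5.33% higher and 6.60% lower of all genes. *Col5a3* rose from 14.0 to 16.6 CPM at 2 months to 22.3 to 35.5 CPM at 12 months, without overlap, by 0.93 ± 0.20 (adjusted p = 0.0114). *Col13a1* fell from 4.17 to 7.19 CPM to 1.71 to 2.92 CPM, also without overlap, by 1.29 ± 0.28 (adjusted p = 0.0130), and missed the threshold without the KO 2 months H or the KO 12 months H library. *Col27a1* (chr4:63214004-63334991, plus strand) was at 26.9, 52.4, 63.9, and 70.8 CPM at 2 months and at 12.5, 18.1, 27.1, and 27.6 CPM at 12 months, and fell by 1.32 ± 0.23 (adjusted p = 0.00485). Only the KO 2 months L library at 26.9 CPM reached the levels of 12 months. With WT or KO libraries alone, 0 of the 3 were called, and the shares of all genes called in these smaller fits are not given here. The 2 ages also differ in ZT here, so age and hour cannot be told apart, and *Col5a3* had a daily rhythm in the time course. There, *Col5a3* was at 5.82 and 5.40 CPM at ZT13 and ZT17 at 2 months, and 24.7 and 14.6 CPM at ZT5 and ZT21 at 12 months. *Col13a1* was at 6.80 and 5.47 CPM and at 3.30 and 6.47 CPM in the same libraries.

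In the time course *Col27a1* changed by 0.49 ± 0.21 from 2 to 12 months (adjusted p = 0.147). It had a daily rhythm in the time course (given with the rhythms), and the hours differ, since the 2-month libraries of the genotype cohort came from ZT13 and ZT17 and the 12-month ones from ZT5 and ZT21. At those hours of the time course it was at 20.2 and 25.9 CPM at 2 months and at 16.2 and 20.7 CPM at 12 months. The part of the hour in the change of *Col27a1* in the genotype cohort was not tested. From 2 to 6 months 0 of 26 tested collagen genes were called in the genotype cohort, where 2.73% of all genes were. In edgeR 7 of the 26 had an unadjusted p under 0.05, beside 2510 of all 14097 genes tested. DESeq2 called 3 collagen genes, and its share over all genes is not given here. From 6 to 12 months 0 were called, as were 0.0213% of all genes, and 0 were called by DESeq2. An unadjusted p under 0.05 in edgeR was found for 1 of the 26, beside 1717 of the 14097.

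**Figure D3:**
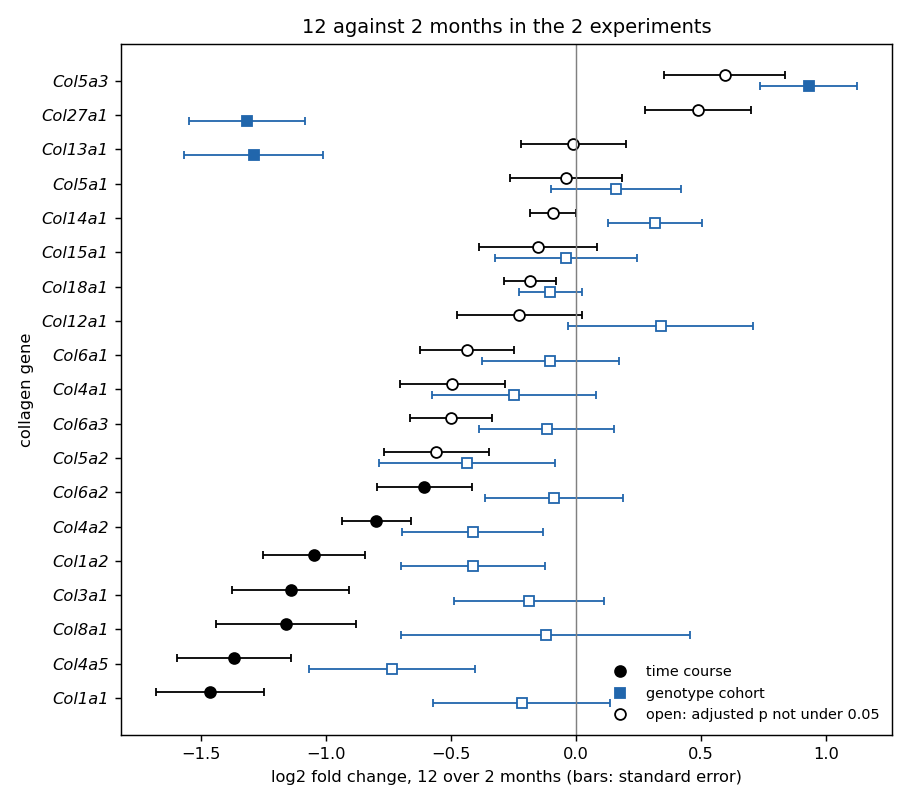
Log2 fold change of 12 over 2 months (x axis, bars are standard errors) of the 19 named collagen genes, in the time course (black circles, 6 libraries an age) and the genotype cohort (blue squares, 4 libraries an age), filled where the adjusted p was under 0.05. *Col1a1* lies at -1.46 in the time course and -0.22 in the genotype cohort, and *Col27a1* at 0.49 and -1.32.

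The comparison of the libraries labelled KO with those labelled WT over the 6 pairs asked how deletion of *Egr-1* in hepatocytes bears on each transcript, and 2 of the pairs did not show lower *Egr1* RNA in KO. Both chains of type I and 2 of the 3 tested chains of type VI were higher in KO. *Col6a1* (chr10:76708792-76726168, minus strand) was at 12.3, 16.9, 8.53, 12.1, 18.3, and 8.56 CPM in WT and at 16.2, 24.1, 14.2, 19.6, 23.6, and 12.6 CPM in the matching KO libraries (2 months H and L, 6 months H and L, 12 months H and L), higher in 6 of 6 pairs. The log2 fold change was 0.54 ± 0.08 (adjusted p = 0.0149). *Col6a2* (chr10:76595762-76623630, minus strand), 85161 bases away on the same strand, was at 7.17 to 13.9 CPM (median 8.36) in WT and 9.37 to 21.3 CPM (median 12.1) in KO. It was also higher in 6 of 6 pairs, by 0.51 ± 0.09 (adjusted p = 0.0256).

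*Col1a1* was at 12.8, 28.2, 9.24, 13.4, 23.4, and 9.52 CPM in WT and at 20.4, 35.4, 15.5, 15.1, 33.5, and 15.2 CPM in KO. It was higher in each pair, by 0.51 ± 0.09 (adjusted p = 0.0273). *Col1a2* ran from 10.8 to 35.1 CPM (median 16.4) in WT and 15.2 to 37.7 CPM (median 24.8) in KO, a change of 0.54 ± 0.10 (adjusted p = 0.0376) with 6 of 6 pairs higher. *Col6a3* (0.52 ± 0.12, adjusted p = 0.0669) and *Col3a1* (0.34 ± 0.08, adjusted p = 0.0674) were higher in 6 of 6 pairs too but missed the threshold. The ranges of WT and KO overlapped for all of these genes.

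*Col27a1* was lower in KO. It was at 63.9, 70.8, 27.2, 41.4, 27.6, and 27.1 CPM in WT and at 52.4, 26.9, 16.8, 27.6, 18.1, and 12.5 CPM in KO, lower in 6 of 6 pairs. The change was -0.78 ± 0.13 (adjusted p = 0.0244), and 2 months L had the widest gap. *Col18a1* ran from 608 to 840 CPM (median 747) in WT and from 484 to 644 CPM (median 631) in KO. Its change of -0.31 ± 0.07 just missed the threshold (adjusted p = 0.0512) and passed it in DESeq2, with another scaling (RLE), and without the filter. *Col4a1* (0.21 ± 0.16, adjusted p = 0.574), *Col4a2* (0.24 ± 0.17, adjusted p = 0.535), and *Col14a1* (0.26 ± 0.09, adjusted p = 0.198) did not pass.

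In all, 4 of 23 tested collagen genes were higher in KO and 1 lower, where 0.785% of 13639 tested genes were higher and 0.792% lower. The median log2 fold change was 0.24 over the 23 and -0.01 over all genes tested. The count was 4 without the 2 months L pair, 2 without the 2 months H pair, 1 without the 6 months H pair, 1 without the 12 months H pair, 1 without the 12 months L pair, and 3 without the 6 months L pair. It was 0 without the 2 pairs whose *Egr1* RNA was not lower in KO, and the 5 log2 fold changes kept their signs there. The shares of all genes called in these fits with fewer pairs are not given here. These counts therefore cannot tell a dependence of the collagens on a pair from fewer calls among all genes. Over all alternatives *Col1a1* lay between 0.47 and 0.57, *Col6a1* between 0.50 and 0.60, and *Col27a1* between -0.88 and -0.64, with adjusted p up to 0.655, 0.439, and 0.496.

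No collagen gene passed the test of a genotype effect that differs between ages or times of collection. For genotype by age 0 collagen genes were called, as were 0.0147% of all genes, and 0 were called by DESeq2. In edgeR 0 of 23 had an unadjusted p under 0.05, beside 424 of all 13639 genes tested. For genotype by time of collection 0 were called, as were 0.00733% of all genes, and 0 were called by DESeq2. In edgeR 5 of 23 had an unadjusted p under 0.05, beside 714 of all 13639 genes tested.

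Of 6 hepatocyte markers 2 were called lower in KO, *Alb* and *Apob*, and 0 higher, and the median log2 fold change of the 6 was -0.17. The summed level of these markers, of which *Alb* is the most abundant, was 69646 to 88013 CPM in WT and 41807 to 58661 CPM in KO, lower in KO in 6 of 6 pairs, and *Alb*, the gene of serum albumin, fell by 0.88 ± 0.11 (adjusted p = 0.0100). Portal fibroblast markers summed to 14.4 to 34.3 CPM in WT and 19.7 to 34.1 CPM in KO, higher in 5 of 6 pairs, with 1 of 5 called (*Fbln2*, 0.83 ± 0.13, adjusted p = 0.0160). Stellate cell markers summed to 244 to 321 and 287 to 314 CPM, higher in 4 of 6 pairs, with 0 of 8 called. Mesothelial markers summed to 33.7 to 81.6 and 43.1 to 111 CPM, higher in 6 of 6 pairs, with 1 of 3 called (*Msln*, 0.53 ± 0.10, adjusted p = 0.0384). Endothelial and myofibroblast markers were higher in 3 and 4 of 6 pairs, with 0 called. Of the other lists, the sum of adipocyte genes was higher in 6 of 6 pairs and that of Kupffer cell markers in 5. Only 1 of the 3 adipocyte genes passed the filter on low counts, and it was not called. B cell markers and proliferation genes were higher in 4 pairs each, exocrine pancreas genes in 3, and cholangiocyte markers in 1. The part of the marker lists in the collagen values was not tested.

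Genes around collagen rose in KO where they were called. Matrix partners had 4 higher and 0 lower of 25, where 0.785% of all genes were higher. They were *Bgn* (0.46 ± 0.07, adjusted p = 0.0198), *Fmod* (0.69 ± 0.11, adjusted p = 0.0226), *Prelp* (0.44 ± 0.08, adjusted p = 0.0376), and *Podn* (0.58 ± 0.11, adjusted p = 0.0384), each a small leucine-rich repeat protein of the matrix, while *Dcn*, *Lum*, and *Ogn* of the same family were not called. The summed level of that list was higher in KO in 1 of 6 pairs. Of 26 collagen processing genes 2 rose, the procollagen protease *Adamts2* (0.52 ± 0.09, adjusted p = 0.0218) and the crosslinking oxidase *Loxl1* (0.61 ± 0.13, adjusted p = 0.0472). The latent TGF-beta binding proteins *Ltbp4* (0.46 ± 0.07, adjusted p = 0.0121), *Ltbp1* (0.67 ± 0.12, adjusted p = 0.0344), and *Ltbp3* (0.55 ± 0.11, adjusted p = 0.0414) rose, 3 of 20 signalling genes, with 0 lower. *Timp2*, an inhibitor of matrix proteases, rose by 0.68 ± 0.09 (adjusted p = 0.0105), 1 of 10 turnover genes, and 0 of 7 receptors were called.

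**Figure D4:**
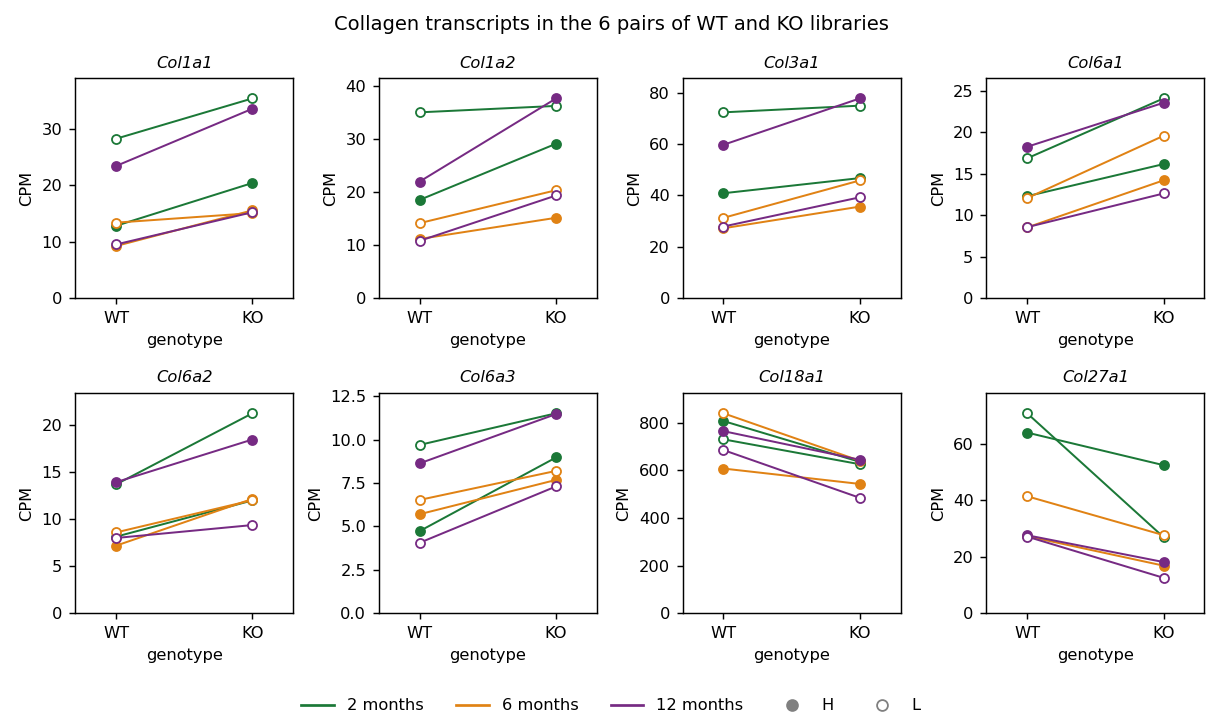
CPM of 8 collagen genes in WT and KO, where each line joins the WT and the KO library of 1 age and time of collection (green 2, orange 6, purple 12 months; filled H, open L). *Col1a1*, *Col1a2*, *Col3a1*, and the type VI chains are higher in KO in 6 of 6 pairs, and *Col27a1* and *Col18a1* lower.

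The daily rhythm was tested as 1 curve with a 24 h period over all 3 ages, to ask which collagen transcripts follow the hour. *Col27a1* had the widest swing among the called genes. At 2 months it went from 6.54 CPM at ZT5 to 25.9 CPM at ZT17, at 6 months from 5.24 CPM at ZT9 to 25.1 CPM at ZT17, and at 12 months from 10.2 CPM at ZT9 to 40.7 CPM at ZT13. The fitted curve peaked at ZT16.9 with a peak 2.93 times its trough (adjusted p = 0.000859). *Col18a1* peaked at ZT1.85 with a fitted ratio of 1.57 (adjusted p = 0.00325). Its highest and lowest libraries were 588 CPM at ZT1 and 387 CPM at ZT17 at 2 months, 495 CPM at ZT1 and 299 CPM at ZT17 at 6 months, and 541 CPM at ZT5 and 262 CPM at ZT9 at 12 months.

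The other called genes peaked in the light phase, as *Col18a1* did. *Col5a3* peaked at ZT1.36 with a fitted ratio of 2.50 (adjusted p = 0.00875), from 5.40 CPM at ZT17 to 14.5 CPM at ZT1 at 2 months and from 5.62 CPM at ZT17 to 24.7 CPM at ZT5 at 12 months. *Col12a1*, a fibril-associated collagen, peaked at ZT4.32 with a ratio of 2.46 (adjusted p = 0.00794), on 13 to 54 counts a library. *Col4a5* (ZT4.56, ratio 1.97, adjusted p = 0.0398) and *Col4a2* (ZT5.08, ratio 1.55, adjusted p = 0.0447) peaked close to it. *Col1a1* (adjusted p = 0.369), *Col1a2* (adjusted p = 0.433), *Col3a1* (adjusted p = 0.711), and the type VI chains did not pass.

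In all, 6 of 24 tested collagen genes passed, where 16.2% of all genes did. The count was 2 without the ZT1 libraries, where the share of all genes called is not given here. In the test of a curve that differs between ages 0 collagen genes were called, as were 0.0973% of all genes. In that test 2 of the 24 had an unadjusted p under 0.05 in edgeR, beside 1391 of all 13361 genes tested, and DESeq2 called 1. Each hour was sampled by 3 libraries, 1 an age.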

How the data were processed

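Liver RNA was sequenced after poly(A) selection in 30 libraries, 18 of the time course and 12 of the genotype cohort. The authors trimmed reads with fastp, aligned them to mm10 with HISAT2, and counted reads per gene with featureCounts. The values deposited are whole-number counts without normalization. Versions, annotation, and strand setting are not given in the sources used here, so reads of a gene and of an overlapping gene on the other strand may be shared, as for *Col4a1* and *Col4a2*. *Col3a1* shares 141 exon bases with the miRNA gene *Gm47302* on the same strand.

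Both tables were used in full, with 0 columns of values left out. Locations came from GENCODE M21 (GRCm38). Tests were edgeR 4.0.16 quasi-likelihood F-tests in R 4.3.3 with TMM factors, genes passing filterByExpr, and Benjamini-Hochberg adjustment over all genes tested, called at an adjusted p under 0.05. Age in the time course had ZT as a block, KO v WT had the pair as a block, and age in the genotype cohort had genotype and time of collection as terms. Standard errors come from the edgeR fit. FPKM came from raw library sums and the merged exon length of each gene. Alternatives were DESeq2 1.42.0, RLE factors, no filter, no block, other sets of libraries, and leaving out each ZT, pair, or library. A count of 3 was the floor of a gene at 0 counts, for counting error only. The fits were tested on simulated data.

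The collagen genes, gene lists, and tests were chosen with earlier results of these data known. Genes chosen to be named one by one were *Col1a1*, *Col1a2*, *Col3a1*, *Col5a1*, *Col5a2*, *Col4a1*, *Col4a2*, *Col6a1*, *Col6a2*, *Col6a3*, *Col14a1*, *Col15a1*, *Col18a1*, *Col27a1*, and any other collagen gene called in a comparison, 19 in all. Of the gene lists, up to 4 called genes with the smallest p were named. P-values measure only the spread between these libraries. The pair block is the design of the labels, 1 WT and 1 KO library at each age and time of collection.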

Additional observations from a re-analysis of the deposited data

Results flagged for a closer look

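Of 95 groups of 6 libraries of the 19 named collagen genes, 4 held a library far from the rest by Dixon's test. That test flags about 1 in 20 groups by chance, and 4 of 95 is no more than that share. *Col3a1* was at 95.7 CPM in the 2 months ZT1 library, and the other 5 libraries of that age lay between 53.6 and 61.3 CPM. *Col4a1* was at 62.2 CPM in the 6 months ZT5 library, with 13.9 to 30.1 CPM in the other 5. In the WT 2 months L library *Col4a1* was at 43.4 CPM, with 14.8 to 23.0 CPM in the other WT libraries, and *Col4a2* was at 28.7 CPM, with 11.0 to 15.0 CPM in the others.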

How the results depend on the processing

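The alternatives gave the following counts of called collagen genes where the count moved by more than 1.5 times. The shares of all genes called under the alternatives are not given here. For 6 v 2 months in the time course (3 called) there were 5 with DESeq2, 6 without the filter, 0 without the ZT block, 0 without the 6 months ZT5 library, an alternative chosen after seeing the data, and 0 to 3 when 1 ZT was left out. For 12 v 2 months (7) there were 13 without the filter. For 12 v 6 months (11) there were 5 without the ZT block and 5 to 12 when 1 ZT was left out. For the daily rhythm (6) there were 2 to 6, and for rhythm by age (0) there was 1 with DESeq2 and 0 to 1 when 1 ZT was left out. For KO v WT (5) there were 8 without the filter, 0 without the pair block, 0 without the 2 pairs whose *Egr1* was not lower in KO, and 1 to 4 when 1 pair was left out. In the genotype cohort, 6 v 2 months (0) gave 3 with DESeq2, 1 without the filter, and 0 to 1 when 1 library was left out, and 12 v 2 months (3) gave 0 in WT alone and 0 in KO alone. The causes were not tested, though fits with fewer libraries have fewer degrees of freedom. The log2 fold changes of named genes turned their sign 67 times in the fits that left out 1 ZT, pair, or library. They did so 15 times in the other alternatives. Some examples, none of them called, follow. *Col13a1* for 12 v 2 months in the time course turned to 0.031 without the ZT block. It ran from -0.15 to 0.11 when 1 ZT was left out, and *Col4a2* for 6 v 2 months from -0.15 to 0.00122. In the genotype cohort for 12 v 2 months *Col1a1* ran from -0.47 to 0.078 and *Col3a1* from -0.40 to 0.077. Depth limits *Col8a1*, *Col12a1*, and *Col4a5*, which had 7 to 54 counts a library in the time course.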
